A study of Mus musculus with 12 samples.

Results

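Homozygous TD adipocytes, which carry the phosphomimetic T166D change in PPARγ, were compared with homozygous TA adipocytes, which carry the phospho-null T166A change, by RNA-Seq. The comparison took the 4 TD and the 4 TA libraries of the 12 libraries in the series, by the genotype in the sample labels, and covered every gene with enough counts to be tested. The other 4 libraries, from WT cells, only added to the estimate of the spread, and their mean levels are given in places without a test. Stromal vascular fraction cells of subcutaneous fat from C57BL/6 mice were grown to confluence and given insulin, T3, IBMX, dexamethasone and indomethacin for 4 days, then insulin and T3 until day 8, when the adipocytes were taken for RNA, with no sorting step named in the sources used here. Both alleles are knock-ins made by CRISPR-Cas9 in the whole animal, so that every cell type of a culture carries them, and both groups thus differ from WT at the same threonine. The age of the donor mice was not given for these cultures in the sources used here. The labels number 4 replicates of each genotype without saying that they came from separate animals or cultures, so the p-values measure the spread between these libraries, which may be technical.

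PPARγ is the nuclear receptor that drives fat cell formation and keeps the mature adipocyte working. It binds DNA as a dimer with the retinoid X receptor at the DR1 element, a direct repeat of AGGTCA-like letters 1 base apart, and recruits coactivators such as PGC1α, the product of Ppargc1a, and PRDM16. T166 is a threonine in the DNA-binding domain of the receptor. Alanine at this residue cannot be phosphorylated, whereas aspartate carries a negative charge like that of a phosphate. White adipocytes store triglyceride in 1 large droplet, and beige adipocytes, which appear in subcutaneous fat, are richer in mitochondria and burn fatty acids.

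The TD libraries held 16553324 to 18357864 counts and the TA libraries 16950175 to 18182526. Levels are given as CPM, counts per 1000000 counts of the library after TMM scaling, and differences as the fitted log2 fold change of TD over TA with its standard error. TA3 stood apart from the other TA libraries. On the first principal component of the 8 libraries, which carried 44.7% of the variance, the TD libraries lay between -35.3 and -19.0, TA1, TA2 and TA4 between 26.5 and 49.97, and TA3 at -2.55. Adipoq, Fabp4, Plin1, Cidec, Lipe and Pparg, which define adipocytes, were detected in every TD and TA library, Pparg, the lowest of them, at 210.1 to 258 CPM in TD and 322 to 428 CPM in TA.

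Of 15117 genes tested, 2455 (16.2%) differed between TD and TA at an adjusted p under 0.05 by edgeR's quasi-likelihood test, and such genes are here called higher or lower in TD. There were 1045 genes higher in TD (6.91%) and 1410 lower (9.33%). Counts of called members of the gene lists below are to be read beside these shares. The 4 TD and the 4 TA libraries did not overlap for 3009 genes (19.9% of those tested), 1409 with TD higher (9.32%) and 1600 with TD lower (10.6%). Most differences were small, since 54.1% of the called genes changed by less than 0.5 on the log2 scale and 321 of them (2.12% of all tested) by more than 1, of which 172 rose (1.14%) and 149 fell (0.986%). The median log2 fold change of all genes tested was 0.02. When libraries were scaled by their totals alone, the split turned to 1712 genes higher and 974 lower, and the median of all genes moved to 0.10. Without a filter on low counts it was 1491 higher and 1401 lower. The count of called genes depended on single libraries: it was 1395 without TA2, 1560 without TD3 and 1419 without TD4, while 3477 genes were called without TA3.

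**Figure D1:**
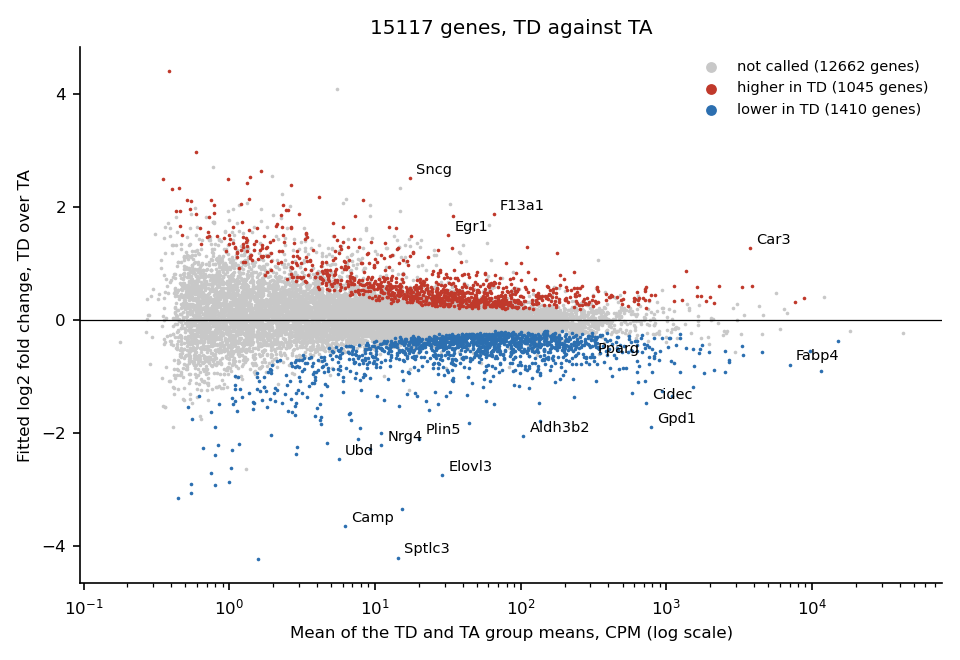
Fitted log2 fold change of TD over TA for each gene tested (vertical axis) against the mean of the 2 group means in CPM on a log axis, with 1045 genes higher in TD in red, 1410 lower in TD in blue and the others in grey. Sptlc3 at -4.20 and Sncg at 2.52 are at the lower and upper edges among genes above 5 CPM that carry a name here.

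The 12 largest falls in TD were taken among called genes that averaged 5 CPM or more in 1 of the genotypes and whose TD and TA libraries did not overlap. The 12 largest rises were taken in the same way, so the lack of overlap in these genes follows from the choice. Sptlc3 encodes a subunit of serine palmitoyltransferase, the enzyme that starts sphingolipid synthesis. It was at 1.82, 1.35, 1.22 and 1.52 CPM in TD1 to TD4 and at 31.3, 34.01, 21.9 and 21.8 CPM in TA1 to TA4. Every TA library was thus far above every TD library, and the fold was 18.4 in favour of TA (log2 -4.20 ± 0.19, adjusted p = 1.21e-10), with a WT mean of 3.6 CPM. Camp, which encodes the antimicrobial peptide cathelicidin, was at 0.795, 1.29, 1.06 and 0.469 CPM in the TD libraries against 14.3, 13.96, 7.35 and 10.3 CPM in the TA libraries (log2 -3.64 ± 0.35, adjusted p = 6.47e-06). TA3 was the lowest TA library for this gene and still lay above every TD library. Its WT mean, 0.796 CPM, was at the TD level.

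Elovl3, a fatty acid elongase known from cold-exposed brown fat, was at 8.52, 5.88, 8.62 and 7.04 CPM in TD and 49.1, 59.3, 41.7 and 51.3 CPM in TA. The difference was 6.698-fold (log2 -2.74 ± 0.24, adjusted p = 2.09e-05) with a wide gap between the groups. Aldh3b2, an aldehyde dehydrogenase, also fell. Its values were 41.9, 40.7, 36.1 and 42.7 CPM in TD and 178, 185, 150.3 and 157 CPM in TA, so that the spread within each genotype was small beside the 4.15-fold difference (adjusted p = 1.21e-10). Plin5, a lipid droplet coat protein of oxidative tissues, was at 8.74, 6.74, 9.31 and 5.57 CPM in TD and 25.03, 40.03, 23.5 and 41.5 CPM in TA (log2 -2.09 ± 0.24, adjusted p = 1.41e-04). TA2 and TA4 were the high libraries here and TA1 and TA3 the lower ones, all above TD. The WT mean of Plin5, 29.2 CPM, was near the TA level. Nrg4, a secreted factor enriched in brown fat, was at 3.09 to 5.34 CPM in TD and 12.4 to 25.5 CPM in TA (log2 -2.20 ± 0.21), and its locus overlaps Fbxo22 on the opposite strand, whose reads could not be told apart because the strand setting of the counting was not given in the sources used here.

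The other 6 of the 12 largest falls ranged from -3.34 to -1.99 on the log2 scale. They were AA914427, an unclassified transcript, Ubd, a ubiquitin-like modifier induced by cytokines, 2610528A11Rik, Ttc25, a protein of motile cilia, Sult2b1, a sulfotransferase of sterols, and Hephl1, a copper-containing ferroxidase. For Ubd the level was 1.44 to 2.21 CPM in TD, 8.52 to 11.3 CPM in TA and 0.739 CPM on average in WT. In 7 of the 12 genes the WT mean was nearer to the TD than to the TA mean on the log scale. The same held for 6 of the 11 rises given below.

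The largest rise in TD was in Sncg, γ-synuclein, a protein of neurons and of white adipocytes. It was at 35.03, 36.6, 25.3 and 21.4 CPM in TD1 to TD4 and at 4.09, 5.84, 4.95 and 5.67 CPM in TA1 to TA4. No TA library came near the lowest TD library, TD4, and the fold was 5.75 (log2 2.52 ± 0.18, adjusted p = 1.85e-07), with a WT mean of 26.4 CPM. Rasd1, a small GTPase induced by glucocorticoids, was at 48.9, 46.5, 61.6 and 57.9 CPM in TD and 13.5, 11.6, 14.6 and 19.8 CPM in TA (log2 1.85 ± 0.17, adjusted p = 7.77e-06). Egr1, an immediate early transcription factor, was at 42.7, 49.96, 46.7 and 49.1 CPM in TD and 15.4, 13.2, 21.5 and 15.9 CPM in TA (log2 1.51 ± 0.21, adjusted p = 5.12e-04). In both genes the groups were well apart. Papln, which encodes the matrix protein papilin, was at 18.7 to 23.2 CPM in TD and 5.23 to 7.56 CPM in TA (log2 1.63 ± 0.16).

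The other large rises, of which 11 of the 12 largest are given here, took in genes of macrophages and other leukocytes, among them F13a1, Clec10a, Fcgr2b, Mmp12 and Aoah. F13a1, the A chain of coagulation factor XIII, was at 122, 95.2, 87.8 and 106 CPM in TD and 22.3, 11.99, 47.3 and 30.1 CPM in TA (log2 1.88 ± 0.45, adjusted p = 0.021). TA3 was the highest TA library, at more than any other TA library and below all TD libraries. Mmp12, the macrophage elastase, was at 20.4, 21.8, 16.8 and 16.9 CPM in TD and 4.39, 3.32, 11.1 and 5.11 CPM in TA (log2 1.66 ± 0.36, adjusted p = 0.0109). In both genes TA3 lay nearest to the TD libraries, as it did for 7 of the 11 rises. The summed level of 29 macrophage markers moved with these genes and is given below, and its part in these rises was not tested. The adjusted p of F13a1 was 0.0591 without TA1, 0.0521 without TA2 and 0.0554 without TD4. Slc13a3, a dicarboxylate transporter, was at 8.35 to 9.91 CPM in TD and 1.05 to 5.34 CPM in TA (log2 1.65 ± 0.47, adjusted p = 0.0341), and its adjusted p was 0.089 without TA1, 0.0738 without TA2, 0.0806 without TA4, 0.0594 without TD1, 0.0586 without TD2, 0.0688 without TD3 and 0.0838 without TD4. Gm8995 (log2 1.49 ± 0.32) is annotated as a transcribed pseudogene, so its counts are uncertain where reads also fit a near-identical copy.

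**Figure D2:**
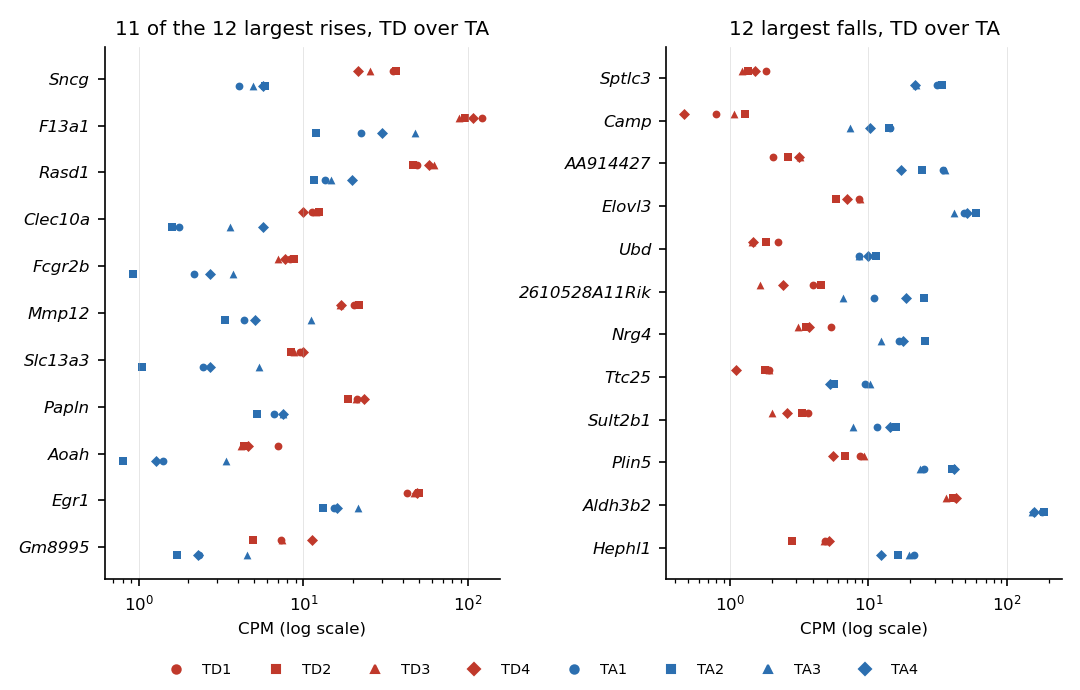
Level of 11 of the 12 largest rises (left) and the 12 largest falls (right) in each library, in CPM on a log axis, with TD libraries in red, TA libraries in blue and 1 symbol for each library. The genotypes do not overlap, because the genes were chosen so, and TA3 (blue triangle) is the TA library nearest to TD in 7 of the 11 rises and 8 of the 12 falls.

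Transcripts of the receptor itself and of most white adipocyte genes were lower in TD. Pparg (chr6:115360951-115490399 on GRCm38) was at 258, 257, 223 and 210.1 CPM in TD and 353, 428, 322 and 391 CPM in TA. The groups did not overlap, and the log2 fold change was -0.66 ± 0.10 (adjusted p = 1.68e-04). The counts cover the whole gene and do not show the altered codon. Of 34 white adipocyte and PPARG target genes, 22 were lower in TD (64.7%, beside 9.33% of all genes). Another 2 were higher (5.88%, beside 6.91%), and the median log2 fold change was -0.49. Cidec, which makes lipid droplets fuse, was at 409, 401, 353 and 364 CPM in TD and 994, 1330.5, 733 and 1173 CPM in TA (log2 -1.47 ± 0.15, adjusted p = 1.01e-05). All TD libraries were close together and below TA3, the lowest TA library. Gpd1, glycerol-3-phosphate dehydrogenase, which supplies the backbone of triglycerides, was at 325, 359.7, 312 and 344 CPM in TD and 1361, 1326, 1291 and 980.0 CPM in TA, a 3.7-fold difference (adjusted p = 1.24e-08). Fabp4, the fatty acid binding protein of adipocytes, fell by a log2 fold change of -0.78 ± 0.11 and adiponectin, Adipoq, by -0.42 ± 0.09.

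Not all adipocyte genes fell. Lpl, lipoprotein lipase, was at 5540.4 to 5878 CPM in TD and 5655 to 6674 CPM in TA, which overlap (log2 -0.15 ± 0.09, adjusted p = 0.276). Car3, carbonic anhydrase 3, an abundant enzyme of white fat, rose in TD. It was at 5766, 5627, 4912 and 4882 CPM in TD and 2335, 1744, 2382 and 2282 CPM in TA, a 2.42-fold difference (log2 1.28 ± 0.11, adjusted p = 4.58e-07) without overlap. Lep, leptin, was at 119, 115, 105 and 82.96 CPM in TD and 57.9, 78.5, 52.8 and 66.1 CPM in TA (log2 0.72 ± 0.12, adjusted p = 9.83e-04). The rise of Car3 was large beside the spread within TD and within TA. For Lep the lowest TD library, TD4 at 82.96 CPM, lay close above the highest TA library, TA2 at 78.5 CPM. Plin1, the main droplet coat of white adipocytes, differed little (log2 -0.32 ± 0.10, adjusted p = 0.0315), and its adjusted p was 0.0791 without TA1, 0.115 without TA2, 0.0523 without TA4, 0.0532 without TD1, 0.0662 without TD2, 0.0721 without TD3 and 0.0901 without TD4.

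Of 31 beige and brown adipocyte genes tested, 10 were lower in TD (32.3%, beside 9.33% of all genes). Another 3 were higher (9.68%, beside 6.91%), and the median log2 fold change was -0.28. Beside Elovl3 and Nrg4, the falls took in Cox8b, a muscle and brown fat isoform of a cytochrome c oxidase subunit, at 2.38, 2.43, 1.703 and 1.11 CPM in TD and 5.26, 7.69, 5.62 and 7.501 CPM in TA (log2 -1.77 ± 0.24, adjusted p = 9.34e-05). The groups were apart although the gene was low in both. Otop1, a proton channel, had 0, 0, 8 and 3 counts in TD1 to TD4 and 62, 43, 45 and 56 counts in TA1 to TA4. TD and TA did not overlap, the adjusted p was 8.54e-05, and the size of the fold rests on few counts. Ucp1, the uncoupling protein that marks active brown and beige cells, was not tested, with 0 or 1 counts in every TD and TA library. Cidea had 0 to 3 counts in TD and 0 to 10 in TA. Cox7a1 was at 6.92 to 18.1 CPM in TD and 15.97 to 29.2 CPM in TA, with overlap (log2 -0.86 ± 0.30, adjusted p = 0.0726). Prdm16, at 9.14 to 11.3 against 10.2 to 11.7 CPM, and Dio2, the deiodinase that activates thyroid hormone, at 1.83 to 3.52 against 1.29 to 3.51 CPM, also overlapped (log2 -0.09 ± 0.15 and 0.37 ± 0.30, adjusted p = 0.72 and 0.43). The 3 genes that rose were Ebf2, a transcription factor of beige precursors (log2 0.37 ± 0.08), Slc6a8, the creatine transporter (log2 0.33 ± 0.09, adjusted p = 0.0151, and 0.0603 without TA2, 0.054 without TD3 and 0.0556 without TD4), and Zfp516. The number called higher was 1 without TA2, 5 without TA3, 1 without TD3 and 1 without TD4.

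**Figure D3:**
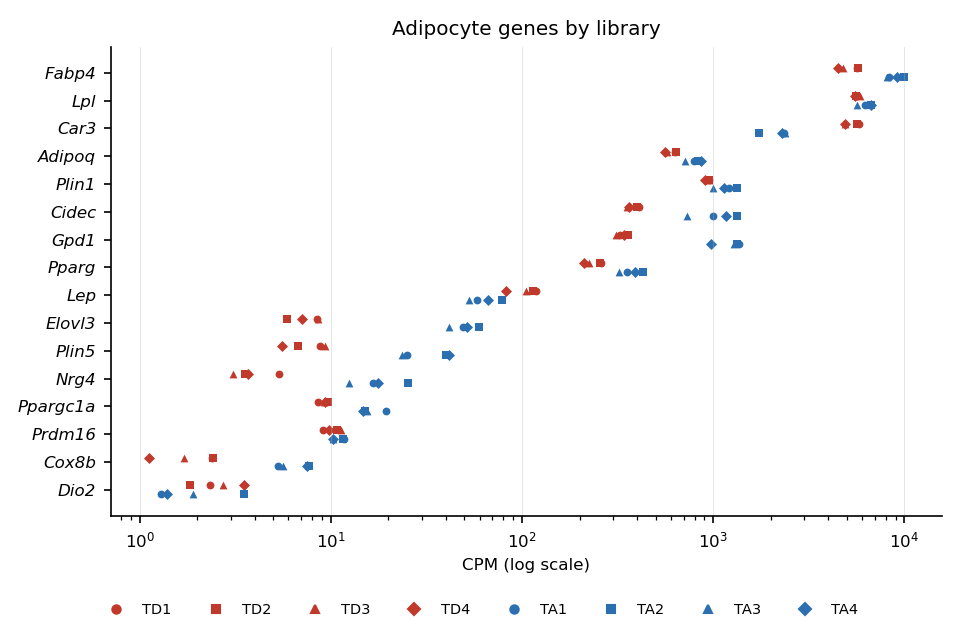
Level of 16 adipocyte genes in each library, in CPM on a log axis, with TD libraries in red, TA libraries in blue and 1 symbol for each library. Cidec, Gpd1, Elovl3, Plin5 and Cox8b are lower in all TD libraries, Car3 and Lep are higher, and Lpl, Prdm16 and Dio2 overlap.

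Genes of the mitochondrial respiratory chain were lower in TD almost throughout. The chain passes electrons from complexes I and II through III to IV, and ATP synthase uses the proton gradient it builds. Of 82 nuclear-encoded subunits tested, 71 (86.6%, beside 9.33% of all genes) were lower in TD and 0 higher. With TD lower, 70 had no overlap between the groups, beside 10.6% of all genes, and 81 had a log2 fold change below 0. The median was -0.55. By complex, 34 of 36 subunits of complex I, 4 of 4 of complex II, 8 of 9 of complex III, 11 of 16 of complex IV and 14 of 17 of ATP synthase were lower. Uqcr11 of complex III was at 47.9, 43.5, 43.2 and 39.5 CPM in TD and 79.4, 96.7, 75.4 and 94.5 CPM in TA (log2 -0.99 ± 0.11, adjusted p = 2.30e-05). Cox5b of complex IV was at 108, 99.6, 89.8 and 78.9 CPM in TD and 170.2, 207, 148 and 192 CPM in TA (log2 -0.93 ± 0.12, adjusted p = 5.28e-05). Ndufa13 of complex I was at 34.4, 32.2, 32.1 and 27.8 CPM in TD and 50.6, 62.7, 51.5 and 61.6 CPM in TA (log2 -0.84 ± 0.10, adjusted p = 2.74e-05). In these genes TD4 was the lowest TD library, TA2 the highest TA library, and the groups did not overlap. The summed level of complex I was 2500.0, 2511, 2211 and 2060.0 CPM in TD1 to TD4 and 3232, 3874, 2852 and 3517 CPM in TA1 to TA4, with TA3 the lowest of TA.

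The fall was less uniform in the genes that build and maintain mitochondria. In the citric acid cycle and pyruvate dehydrogenase, which feed the chain, 20 of 26 genes were lower and 0 higher (median -0.50). Mpc2, a subunit of the mitochondrial pyruvate carrier, was at 120.2, 109, 109.6 and 103 CPM in TD and 249, 268, 233 and 190.2 CPM in TA (log2 -1.09 ± 0.10, adjusted p = 1.61e-06). The TD libraries lay below the TA libraries, TA4 being the lowest of these. Of the mitochondrial ribosomal proteins, 47 of 77 were lower and 0 higher (median -0.33), but the count was 27 without TA1, 14 without TA2, 30 without TA4, 21 without TD3 and 13 without TD4, and 20 with libraries scaled by their totals. Members said to lead a list are those with the largest changes among called members that averaged 5 CPM or more in 1 of the genotypes. In protein import 15 of 34 were lower, led by Dnajc15 (log2 -1.06 ± 0.14) and Tomm7, a part of the outer membrane entry gate (log2 -0.78 ± 0.13). In coenzyme Q synthesis 5 of 13 were lower, led by Coq8a (log2 -0.89 ± 0.13), which overlaps Cdc42bpa on the opposite strand, and the count was 2 without TA2, 3 without TD3 and 3 without TD4.

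Of the 13 protein-coding genes of the mitochondrial genome tested, 6 were lower and 0 higher. The count was 3 without TA1, 3 without TA2, 10 without TA4, 3 without TD3 and 3 without TD4. Their share of all counts was 3.03% ± 0.331 (SD) in TD and 3.59% ± 0.758 in TA. An exact two-sided permutation test over the 8 libraries gave p = 0.229, where the smallest p possible is 0.0286. TA4, at 2.60%, was the lowest library of all, and without it the difference was -0.896 percentage points (p = 0.0286, exact permutation test). The labels do not say how messenger RNA was selected.

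Of 16 genes that steer mitochondrial formation, 5 were lower (31.2%, beside 9.33% of all genes) and 1 higher (6.25%, beside 6.91%). Ppargc1a, the coactivator PGC1α, was at 8.57, 9.65, 9.26 and 9.32 CPM in TD and 19.4, 15.1, 15.5 and 14.8 CPM in TA (log2 -0.81 ± 0.11, adjusted p = 1.16e-04). TD values were close together and every TA library was above them. Ppara, the PPAR isoform of fatty acid oxidation, was at 5.01 to 7.13 CPM in TD and 8.24 to 13.4 CPM in TA (log2 -0.75 ± 0.17, adjusted p = 0.00693). The 5 falls became 3 without TA2 and 3 without TD4, and the 1 rise 0 without TA1, 0 without TA2, 0 without TD3 and 0 without TD4. Prkca, protein kinase C α, the kinase that phosphorylates T166 by the study's account, was at 32.8 to 41.6 CPM in TD and 28.4 to 34.9 CPM in TA (log2 0.26 ± 0.10, adjusted p = 0.0803).

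Promoter sequences of RefSeq on GRCm38.p6, 250 bases before to 50 after each gene's start, were searched for the binding motif of NRF1, a transcription factor of respiratory chain genes. The search used GCGC, any base and TGCGC in a row, on both strands, and 10870 of the 15117 genes tested had a promoter in the table. A match stood in 27.3% of 66 respiratory chain and ATP synthase promoters (18 genes), in 11% of all promoters, in 13.6% of those of genes lower in TD and in 4.95% of those of genes higher in TD. Of the 18 genes with a match, 14 were lower in TD, beside 71 of all 82 subunits tested (86.6%). Those with a match that were not called included Atp5k, Atp5g2 and Atpif1. A link between the motif and the fall was not tested. Stretches of 4 promoters are shown for subunits that fell in TD, chosen after their matches were known, written 5′ to 3′ on the strand of the gene with each match in capitals.
Cox6a1 (chr5:115349046-115349140, minus strand): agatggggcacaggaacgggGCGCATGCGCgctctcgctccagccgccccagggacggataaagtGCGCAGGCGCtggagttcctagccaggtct
Ndufb4 (chr16:37654369-37654579, minus strand): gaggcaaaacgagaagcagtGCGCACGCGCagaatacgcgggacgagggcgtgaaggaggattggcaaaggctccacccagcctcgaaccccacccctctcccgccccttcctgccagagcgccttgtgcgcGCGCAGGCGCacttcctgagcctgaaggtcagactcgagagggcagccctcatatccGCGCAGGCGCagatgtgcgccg
Ndufa5 (chr6:24527687-24527736, minus strand): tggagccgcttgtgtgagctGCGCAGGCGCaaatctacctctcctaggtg
Sdha (chr13:74350241-74350358, minus strand): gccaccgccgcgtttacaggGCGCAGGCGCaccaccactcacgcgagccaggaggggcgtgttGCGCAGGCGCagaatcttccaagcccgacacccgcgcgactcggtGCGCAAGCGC
Cox6a1 of complex IV, with 2 matches, had a log2 fold change of -0.78 ± 0.12. Ndufb4 and Ndufa5 of complex I, with 3 and 1 matches, had -0.73 ± 0.20 and -0.68 ± 0.12. Sdha of complex II, with 3 matches, had -0.48 ± 0.10. A match is a description of the letters and not a measured binding site.

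Fatty acid oxidation fell with the respiratory chain. In mitochondria 21 of 28 genes were lower in TD and 0 higher, with a median of -0.45. Acsl1, which activates fatty acids to acyl-CoA, was at 1123, 1198, 1178 and 1445 CPM in TD and 2567, 2399.8, 2417 and 2112 CPM in TA (log2 -0.94 ± 0.14, adjusted p = 2.18e-04). TD4 was the highest TD library and lay below TA4, the lowest TA library. Eci1, an enzyme for unsaturated chains, was at 83.001, 85.5, 72.2 and 70.1 CPM in TD and 145, 176, 107 and 144 CPM in TA (log2 -0.88 ± 0.13, adjusted p = 3.85e-04). Cpt2, which releases acyl-CoA inside mitochondria, was at 180.0, 180.1, 179.7 and 174 CPM in TD and 230.1, 287, 214 and 247 CPM in TA (log2 -0.45 ± 0.10, adjusted p = 0.0063). Acaa2, the thiolase, and Acadm and Acadl, dehydrogenases of medium and long chains, had log2 fold changes of -0.57 ± 0.09, -0.61 ± 0.09 and -0.40 ± 0.07, each without overlap. The WT mean was nearer to TA for Eci1 (133.9 CPM), Cpt2 (274.7 CPM), Acadm (483 CPM) and Acadl (382 CPM). It was nearer to TD for Acsl1 (1524 CPM) and Acaa2 (237.6 CPM). Cpt1b, the muscle isoform of the entry step, named after its values were seen, was at 0.681, 1.24, 1.49 and 1.58 CPM in TD and 3.86, 4.61, 2.28 and 4.45 CPM in TA (log2 -1.60 ± 0.28, adjusted p = 7.81e-04), low in both and without overlap. Slc25a20, the carnitine carrier, likewise named after its values were seen, had a log2 fold change of -0.76 ± 0.08. Cpt1a, the isoform of most tissues, was at 20.3 to 32.7 CPM in TD and 12.4 to 26.2 CPM in TA, with overlap (log2 0.43 ± 0.19, adjusted p = 0.143).

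The DR1 element was searched as AGGTCA, any base and AGGTCA in a row, with up to 2 mismatches, on both strands. It stood in 13% of 23 promoters of mitochondrial fatty acid oxidation (3 genes), in 3.51% of all promoters, in 4.28% of those of genes lower in TD and in 4.56% of those of genes higher in TD. All 3 genes, Slc25a20, Etfa and Echs1, were lower in TD, beside 21 of all 28 genes of the list (75%). A link between DR1 and the fall was not tested. Both stretches that lie wholly before the start are shown, with the match in capitals, on the strand of the gene.
Etfa (chr9:55512288-55512340, minus strand): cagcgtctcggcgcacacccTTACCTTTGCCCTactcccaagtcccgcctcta
Echs1 (chr7:140116472-140116524, minus strand): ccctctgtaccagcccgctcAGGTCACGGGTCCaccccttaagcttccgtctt
Etfa, a subunit of the flavoprotein that takes electrons from the dehydrogenases, had a log2 fold change of -0.66 ± 0.11, and Echs1, an enoyl-CoA hydratase, of -0.41 ± 0.11. PPARγ also binds far from promoters, which these windows leave out.

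Peroxisomes, lipid droplets and branched-chain amino acid breakdown moved the same way. Among peroxisomal oxidation enzymes 13 of 22 were lower and 0 higher (median -0.38), led by Ehhadh, a bifunctional enzyme, at 55.2, 48.2, 47.5 and 44.4 CPM in TD and 92.2, 111, 70.5 and 95.5 CPM in TA (log2 -0.92 ± 0.11). The groups did not overlap. Acoxl, of the same list but under 5 CPM and named after its values were seen, was at 0.0568, 0.216, 0.0532 and 0.117 CPM in TD and 1.23, 1.17, 0.835 and 0.667 CPM in TA (log2 -3.05 ± 0.54, adjusted p = 9.12e-04), a larger fall that rests on few counts. In lipolysis and droplet proteins 13 of 19 were lower (68.4%, beside 9.33% of all genes). Another 2 were higher (10.5%, beside 6.91%), and the median was -0.45. The 2 that rose were Hilpda, an inhibitor of triglyceride breakdown induced by low oxygen (log2 0.37 ± 0.10, adjusted p = 0.022), and Lipa, the lysosomal acid lipase (log2 0.30 ± 0.08, adjusted p = 0.0128). Adjusted p for Hilpda was 0.064 without TA1, 0.0811 without TA2, 0.064 without TD3 and 0.0737 without TD4, and for Lipa 0.0533 without TD4. In branched-chain amino acid catabolism 17 of 25 were lower and 0 higher, led by Bcat2, the first transaminase, at 489, 463, 448 and 431 CPM in TD and 897, 1135, 687 and 1137 CPM in TA (log2 -1.07 ± 0.13, adjusted p = 3.65e-05). That count was 10 without TA2, 11 without TD3 and 11 without TD4. Of 17 peroxins, which build peroxisomes, 6 were lower (35.3%, beside 9.33% of all genes) and 1 higher (5.88%, beside 6.91%). The 6 became 2 without TA1, 2 without TA2, 2 without TD3 and 2 without TD4.

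**Figure D4:**
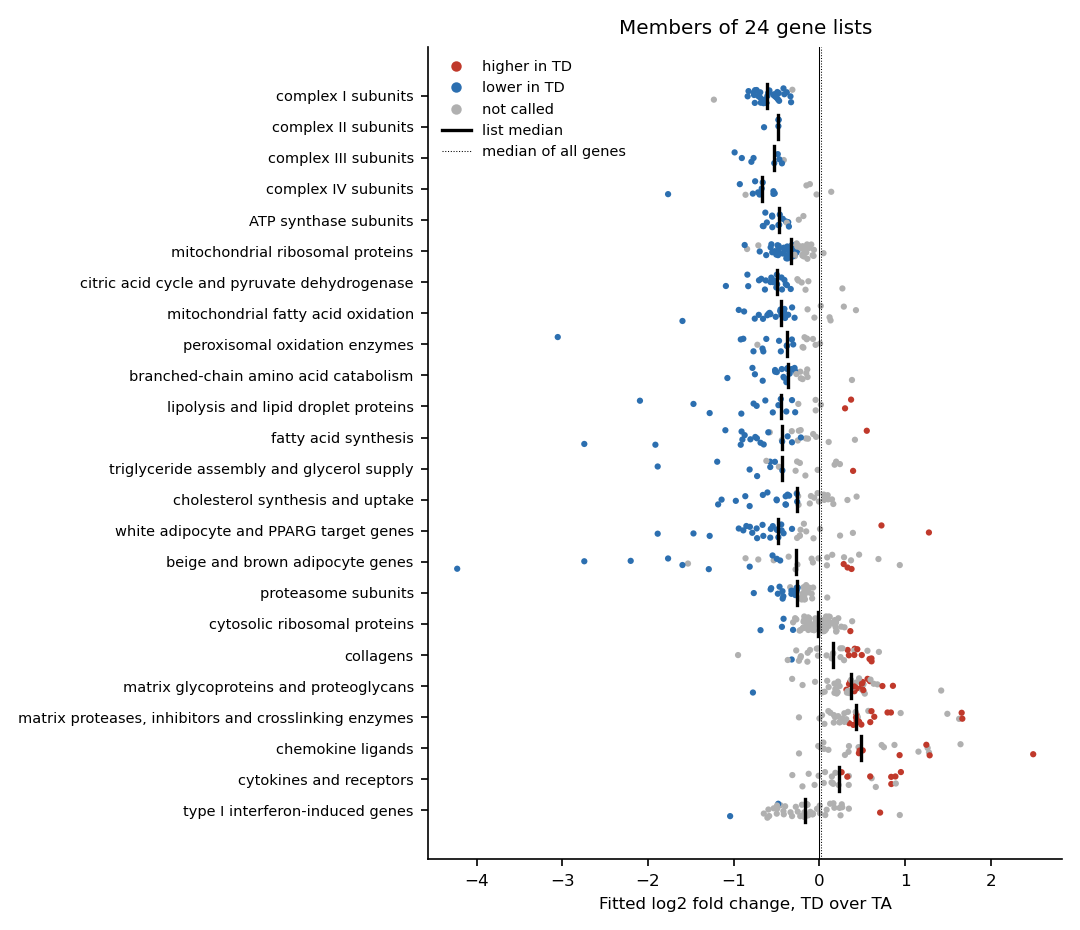
Fitted log2 fold change of TD over TA for each tested member of 24 gene lists, with members higher in TD in red, lower in blue and not called in grey, a black bar at the list median and a dotted line at the median of all genes. Respiratory chain, oxidation and lipid lists lie left of the dotted line, and matrix, chemokine and cytokine lists lie right of it.

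Lipid synthesis fell together with lipid oxidation. Of 30 genes of fatty acid synthesis 17 were lower (56.7%, beside 9.33% of all genes). Another 1 was higher (3.33%, beside 6.91%), and the median was -0.44. Scd3, a stearoyl-CoA desaturase, was at 4.26, 3.23, 3.09 and 2.697 CPM in TD and 12.6, 16.4, 7.46 and 13.7 CPM in TA (log2 -1.91 ± 0.27, adjusted p = 2.73e-04), and it may share reads with the near-identical and far more abundant Scd1. Fasn, Acly and Acaca, the main enzymes of the pathway, named here after their values were seen, had log2 fold changes of -0.90 ± 0.13, -0.91 ± 0.12 and -0.75 ± 0.12. The gene that rose was Fads6 (log2 0.55 ± 0.14). Gpd1 and Gpd2, the cytosolic and mitochondrial glycerol-3-phosphate dehydrogenases, led the falls in triglyceride assembly. There 8 of 19 genes were lower (42.1%, beside 9.33% of all genes) and 1 higher (5.26%, beside 6.91%). Gpd2 was at 79.7, 70.2, 62.96 and 63.02 CPM in TD and 182, 184, 148 and 116 CPM in TA (log2 -1.19 ± 0.12, adjusted p = 1.22e-05). TA4 was the lowest TA library for both and still above TD.

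In cholesterol synthesis and uptake 16 of 32 genes were lower and 0 higher, with a median of -0.26. Cyp51, the lanosterol demethylase, was at 922, 848, 987 and 992 CPM in TD and 2371, 2183, 2041 and 1912 CPM in TA (log2 -1.18 ± 0.10, adjusted p = 4.38e-07). Abcg1, a cholesterol exporter, was at 50.6, 56.4, 56.6 and 60.7 CPM in TD and 119.8, 148, 107 and 120.4 CPM in TA (log2 -1.14 ± 0.09, adjusted p = 3.98e-07). Both genes separated the groups clearly. Sqle, squalene epoxidase, named after its values were seen, had a log2 fold change of -0.11 ± 0.09. The sterol response element, searched as TCAC, any base and CCAC in a row on both strands, stood in 1 of 22 promoters of this list (4.55%) and in 1.43% of all. Among 32 sphingolipid genes 4 were lower (12.5%) and 2 higher (6.25%), near the 9.33% and 6.91% of all genes. Ormdl3, a regulator of serine palmitoyltransferase (log2 -0.78 ± 0.11), fell beside Sptlc3. The 2 rises became 5 without TA3 and 1 without any 1 of the other libraries. In fatty acid uptake and binding 9 of 23 were lower and 0 higher. Slc27a1, a fatty acid transporter, was at 319.7, 314, 363 and 356 CPM in TD and 795, 802, 794 and 919 CPM in TA (log2 -1.29 ± 0.08, adjusted p = 1.60e-08), while its WT mean, 296 CPM, was near TD.

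Signalling genes changed singly and in both directions. Of 32 genes of insulin signalling and glucose uptake 6 were lower (18.8%, beside 9.33% of all genes) and 4 higher (12.5%, beside 6.91%). Slc2a4, the insulin-regulated glucose transporter GLUT4, was at 236, 222, 210.0 and 198 CPM in TD and 341, 404, 279 and 349 CPM in TA (log2 -0.66 ± 0.10, adjusted p = 1.69e-04). The groups did not overlap. Grb14, an inhibitor of the insulin receptor, rose by 0.75 ± 0.16. Of 33 adrenergic and cyclic AMP genes 4 were lower (12.1%) and 2 higher (6.06%, and 4 genes without TA3), near the shares of all genes. The falls took in the α1 receptors Adra1a and Adra1d (log2 -0.81 ± 0.18 and -0.77 ± 0.14). In glycolysis 6 of 24 were lower and 0 higher, led by Pfkfb3, the switch enzyme of fructose bisphosphate levels, at 447 to 511 CPM in TD and 695 to 909 CPM in TA (log2 -0.81 ± 0.10), and the count was 12 without TA3. Of 8 genes of the pentose phosphate pathway, a source of NADPH, 4 were lower and 1 higher, with Tkt at -0.71 ± 0.10, and the 4 became 2 without TA2, 2 without TD3 and 2 without TD4. Igf1, insulin-like growth factor 1, fell by -0.63 ± 0.10. Hsd11b1, which activates glucocorticoids, rose by 0.85 ± 0.12 at 141 to 149.5 against 58.6 to 102 CPM.

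Nuclear receptors and coregulators were mixed, with 7 of 43 lower (16.3%, beside 9.33% of all genes) and 5 higher (11.6%, beside 6.91%). Among the falls were Pparg, Ppara and Ppargc1a, given above. Nr4a1, an immediate early orphan receptor, rose from 2.34 to 4.17 CPM in TA to 5.45 to 6.51 CPM in TD (log2 0.80 ± 0.19, adjusted p = 0.0074). The 5 rises became 3 without TA1, 2 without TA2, 2 without TA4, 3 without TD2, 3 without TD3 and 2 without TD4. Of 28 adipogenic transcription factors 5 were lower (17.9%) and 2 higher (7.14%, and 4 genes without TA1). Klf4, an early factor of adipogenesis, rose (log2 0.59 ± 0.11, adjusted p = 0.00116), and the 5 falls became 2 without TA1, 2 without TA2, 3 without TA4, 2 without TD2, 3 without TD3 and 3 without TD4. In the TGF-β and BMP pathway 11 of 38 were higher (28.9%, beside 6.91% of all genes) and 3 lower (7.89%, beside 9.33%). The 11 became 3 without TA2, 17 without TA3, 6 without TD2, 4 without TD3 and 4 without TD4. Inhbb, an activin subunit, was at 8.18 to 10.4 CPM in TD and 3.69 to 6.33 CPM in TA (log2 0.73 ± 0.17), and its receptor chain Acvr1c, known from adipocytes, fell (log2 -0.50 ± 0.11).

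Many extracellular matrix genes rose. Over collagens, matrix glycoproteins and matrix proteases, 41 of 122 genes were higher in TD (beside 6.91% of all genes) and 2 lower, with a median log2 fold change of 0.34. Glycoproteins took 17 of 50, led by Lama2, a laminin chain, at 266, 277, 314 and 349.6 CPM in TD and 176, 106, 215 and 169 CPM in TA (log2 0.86 ± 0.18, adjusted p = 0.00854). TA3 was again the TA library nearest to TD, and TA2 the lowest. Proteases, inhibitors and crosslinking enzymes took 15 of 39 with 0 lower. Plau, urokinase, was at 35.4, 34.1, 34.4 and 35.8 CPM in TD and 21.1, 11.3, 25.4 and 20.4 CPM in TA (log2 0.83 ± 0.19, adjusted p = 0.00967). Collagens took 9 of 33 with 1 lower, and Col12a1 was at 142, 210.0, 164 and 218 CPM in TD and 128, 113, 139.8 and 102 CPM in TA (log2 0.61 ± 0.13). TD1 lay close to the highest TA library, TA3. These counts depended on single libraries more than those of the respiratory chain did. The glycoprotein count was 9 without TA2, 26 without TA3, 7 without TD3 and 8 without TD4, the protease count 25 without TA3 and 9 without TD4, and the collagen count 5 without TD2, 3 without TD3 and 3 without TD4. The markers of preadipocytes and fibroblasts, which make such matrix, are given below, and their part in these rises was not tested.

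Chemokine and cytokine genes were higher or not called. Of 24 chemokine ligands 7 were higher and 0 lower (median 0.49), a count that was 3 without TA1, 2 without TA2, 15 without TA3, 4 without TA4, 3 without TD3 and 2 without TD4. Ccl6 was at 56.1, 51.9, 46.5 and 37.3 CPM in TD and 14.4, 10.9, 33.4 and 19.8 CPM in TA (log2 1.29 ± 0.38, adjusted p = 0.0479), and its adjusted p was 0.114 without TA1, 0.122 without TA2, 0.0937 without TA4, 0.0935 without TD1, 0.0956 without TD2, 0.0933 without TD3 and 0.0751 without TD4. Of 25 cytokine genes 7 were higher and 0 lower, and 3 were called without TA2 or without TD4. Socs3, a feedback inhibitor of cytokine receptors, was at 32.8, 35.4, 33.8 and 42.3 CPM in TD and 20.2, 12.6, 24.2 and 20.9 CPM in TA (log2 0.89 ± 0.16, adjusted p = 0.00141). The groups did not overlap. Complement and acute phase genes moved in both directions. Of 39 genes, 9 were higher (23.1%, beside 6.91% of all genes) and 7 lower (17.9%, beside 9.33%). Orm3, an α1-acid glycoprotein, was at 12.9, 10.7, 11.8 and 11.1 CPM in TD and 37.1, 42.4, 28.1 and 32.5 CPM in TA (log2 -1.59 ± 0.18, adjusted p = 4.69e-05), and reads may be shared among the closely related Orm1, Orm2 and Orm3. The 9 rises became 5 without TA1, 3 without TA2, 14 without TA3, 4 without TD3 and 3 without TD4. Interferon-induced genes spread widely within TD. Of 49 type I genes 2 were lower (4.08%, beside 9.33% of all genes) and 1 higher (2.04%, beside 6.91%). Their summed level was 2614, 2536, 3786 and 4046 CPM in TD1 to TD4 and 3768, 4064, 3484 and 3863 CPM in TA1 to TA4. TD1 and TD2 thus lay below and TD3 and TD4 within the TA range.

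Of 36 proteasome subunits 18 were lower and 0 higher (median -0.26). Psma1 was at 265, 256, 237 and 233 CPM in TD and 388, 473, 387 and 437 CPM in TA (log2 -0.77 ± 0.08, adjusted p = 6.99e-06). The groups were well apart for this subunit, while the list's count was 9 without TA2, 11 without TD3 and 10 without TD4. Cytosolic ribosomal proteins stayed near the median of all genes, with 4 of 81 lower (2 without TA4, 2 without TD2, 2 without TD3 and 2 without TD4), 1 higher and a median of -0.02. Of 40 NRF2 target and glutathione genes 11 were lower and 4 higher, the falls becoming 6 without TA2, 7 without TD3 and 7 without TD4, and the rises 2 without TA1 and 2 without TA4. Hmox1, haem oxygenase, was at 197 to 267 CPM in TD and 132 to 171 CPM in TA (log2 0.62 ± 0.16, adjusted p = 0.0201), and its adjusted p was 0.056 without TA1, 0.0699 without TA2 and 0.0555 without TA4. Endoplasmic reticulum chaperones (1 of 19 lower) and cytosolic heat shock proteins (1 of 14 higher and 1 lower) stayed close to the share of all genes.

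Markers of other cells that the stromal vascular fraction can hold also moved. In bulk RNA fewer cells of a type and less RNA per cell cannot be told apart. All 29 tested macrophage markers but 1 had a log2 fold change above 0 (median 1.00). With TD higher, 7 had no overlap, beside 9.32% of all genes. By the test 2 were higher (6.9%, beside 6.91% of all genes), Cd163 (log2 1.49 ± 0.35) and Msr1 (log2 1.15 ± 0.35). The number called was 20 without TA3, 1 without any 1 of the other libraries, and 6 without both TA2 and TA3. The adjusted p of Msr1 was 0.0479, and 0.111 without TA1, 0.107 without TA2, 0.102 without TA4, 0.0813 without TD1, 0.0891 without TD2, 0.0896 without TD3 and 0.108 without TD4. The summed level of the 29 markers was 1590.0, 1286, 1269 and 1273 CPM in TD1 to TD4 and 653, 402, 1191 and 718 CPM in TA1 to TA4. TA3 was the highest TA library for 27 of the 29 and lay just under the lowest TD library in the sum. Adgre1, which defines macrophages, was detected at 43.8 to 66.5 CPM in TD and 8.98 to 46.8 CPM in TA. These ranges overlap, and Adgre1 was not among the 2 called markers. For endothelial cells 9 of 25 markers were higher and 1 lower, with summed levels of 258 to 314 CPM in TD and 148 to 235 CPM in TA, and the 9 became 4 without TA2 and 5 without TD4. For preadipocytes and fibroblasts 6 of 25 were higher and 1 lower, at 4340.0 to 5089 CPM in TD and 2916 to 4653 CPM in TA, which overlap, and the 6 became 2 without TA2, 3 without TA4, 3 without TD2, 3 without TD3 and 3 without TD4.

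Skeletal muscle markers were high in single libraries. Their summed level was 75.7, 192, 620.2 and 372 CPM in TD1 to TD4 and 77.8, 182, 112 and 76.01 CPM in TA1 to TA4. TD3 was the highest TD library for 31 of the 32 markers tested and TA2 the highest TA library for 28, and TD1 lay at the level of TA1 and TA4. All 32 had a log2 fold change above 0 (median 1.79), yet 5 were called (15.6%, beside 6.91% of all genes). With TD higher, 1 had no overlap, beside 9.32% of all genes. The number called was 2 without TA1, 2 without TA4, 20 without TD1, 0 without TD3 and 3 without TD4. Lymphocyte (2 of 18), epithelial (4 of 17) and mesothelial (2 of 9) markers mostly had too few counts to be tested, and 15 of the 18 lymphocyte markers had at most 10 counts in every library. The part of these cells in the differences between TD and TA was not tested.

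**Figure D5:**
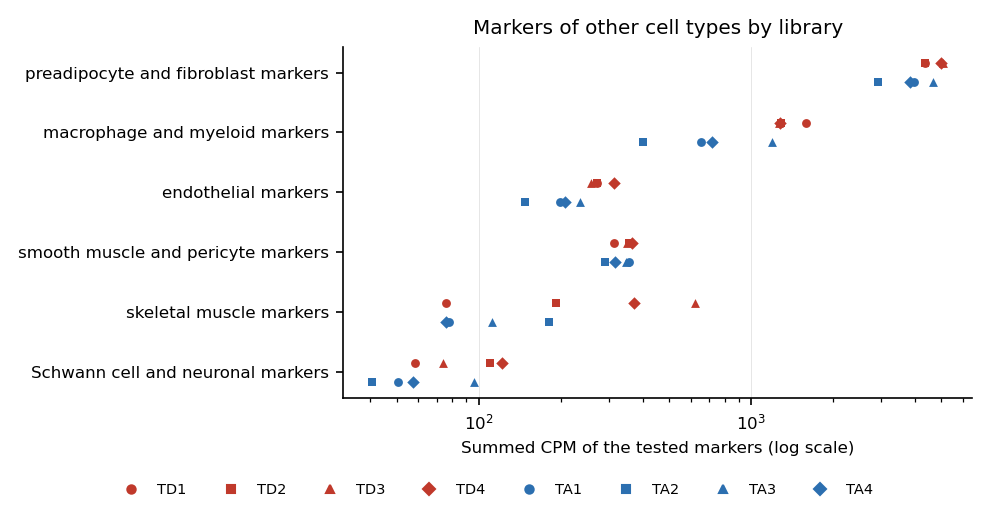
Summed CPM of the tested markers of 6 other cell types in each library on a log axis, with TD libraries in red, TA libraries in blue and 1 symbol for each library. The macrophage and endothelial sums are higher in all TD libraries, TA3 (blue triangle) lies nearest to TD in both, and the skeletal muscle sum is highest in TD3 and TD4.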

How the data were processed

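RNA of 12 libraries, 4 each of WT, TA and TD adipocytes, was sequenced by the authors, and the TD and TA libraries were compared. Per the labels, reads were handled with bcl2fastq 2.17.1.14 and cutadapt 1.9.1, aligned to GRCm38 with HISAT2 2.0.1 and counted with HTSeq 0.6.1. The authors deposited raw read counts per gene, without normalization, for 55573 genes, as 1 table and library by library with equal values. Strand setting, RNA selection and read length were not given in the sources used here. The study names DESeq2 without a design. Positions came from GENCODE M21 (GRCm38), where 99.7% of identifiers were found.

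Genes were kept by filterByExpr (minimum count 10, minimum total 15), scaled by TMM (factors 0.957 to 1.04) and tested for TD minus TA by edgeR's quasi-likelihood test (edgeR 4.0.16 with limma 3.58.1 in R 4.3.3, robust, two-sided), fitted to all 12 libraries so that genotypes share the spread, with Benjamini-Hochberg adjustment over the 15117 genes. Per-library CPM carry no added prior. Depth was 16553324 to 18357864 counts, and counting error is smaller than the biological coefficient of variation of 12.9% for genes above a few CPM. On data simulated for this comparison over 14907 genes, 99% of genes with a log2 change of 1 and 100% with a change of 2 were recovered, and 7.01% of the calls were false. The simulation changed 100 well-counted genes at each size, gave all genes the same spread and held no outlying library. Its rates thus do not carry over to smaller changes, to low genes or to libraries as uneven as those of TA.

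Genes named are the 12 largest rises and falls (called, 5 CPM or more in 1 genotype, no overlap), genes that the study or its primers name or that define the cells, and the 2 largest rises and falls of each of 64 gene lists (called, the same 5 CPM), unless said otherwise; a few of these genes are not reported here. Members and lists were chosen with earlier results of these data known. Lists are described by counts and medians and not tested. Replicate numbers were not taken to pair the samples, since the labels state no pairing. Deviations from the group means of same-numbered libraries correlated at -0.103 to 0.107, and those of unlike number at -0.167 to 0.232. These correlations cannot exclude a batch shared by libraries of the same number. Alternatives were DESeq2 1.42.0, other scalings and filters, a fit on TD and TA alone, a replicate block and each library left out, and, added after the data were seen, a fit without robust estimation and one without TA2 and TA3.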

Additional observations from a re-analysis of the deposited data

Results flagged for a closer look

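In groups of 4 libraries, 1 library stood far from the others, by the ratio of its gap to the nearest library over the whole range, in 20 of 506 groups examined (3.95%), and chance alone flags about 1 in 20. In TD the low libraries were TD4 for Ttc25 (0.843), Plin1 (0.89) and Cpt2 (0.933), TD2 for Hephl1 (0.875) and TD1 for Fstl3 (0.841), an activin inhibitor, and TD1 was high for the clock output gene Tef (0.829). In TA, TA4 was low for Gpd1 (0.84) and for the chaperone gene Dnajb9 (0.929) and high for Slc27a1 (0.939). TA2 was high for Acadl (0.882) and Neb (0.889), a giant muscle protein, and low for Car3 (0.863) and the nuclear receptor Nr2f1 (0.83). TA3 was low for Pex10 (0.895), Irs3 (0.951) and Cspg4 (0.836), a proteoglycan of pericytes. For the mean of a gene list, TA3 was low for triglyceride assembly and glycerol supply (0.842), TD2 low for insulin signalling and glucose uptake (0.847), TD1 low for Wnt ligands, receptors and inhibitors (0.921) and TD3 high for adipogenic transcription factors (0.905).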

How the results depend on the processing

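No named gene with a call changed direction under the alternatives run, and neither did the difference in mitochondrial share. The direction of the other called genes was not compared gene by gene. The 2455 genes called (1045 higher in TD, 1410 lower) became 2464 with DESeq2 size factors, 2892 without a filter (1491 higher, 1401 lower), 2450 with 10 counts in every library, 2972 by DESeq2, 2303 on TD and TA alone and 2524 without robust estimation. Leaving out each library in turn gave 1395 to 3477 called (517 to 1708 higher, 848 to 1769 lower), and leaving out TA2 and TA3, chosen after seeing the data, 1739. An absolute log2 fold change above 1 left 321 (172 higher, 149 lower), and scaling by library totals gave 1712 higher. With a replicate block, although the numbers are known to share only a label, 2309 were called (1087 higher, 1222 lower). The median log2 fold change of fatty acid synthesis (-0.44) was -0.36 with library totals, -0.54 as a mean and -0.52 to -0.40 with a library left out. That of cholesterol synthesis and uptake (-0.26) was -0.18 with library totals. That of beige and brown adipocyte genes (-0.28) was -0.20 with library totals, -0.16 without a filter, -0.54 as a mean and -0.39 to -0.27 with a library left out. That of skeletal muscle markers (1.79) was 2.86 without TA2 and TA3. The difference in mitochondrial share (-0.566 percentage points) ran from -0.896 to -0.348 with a library left out, and was past the threshold without TA4 only (exact permutation test, p = 0.0286). The cause of these shifts was not tested. Over those of the 186 named genes that were tested, 2851 values kept their call, 266 lost it and 8 gained it. Most of the losses came with TA1, TA2, TD3 or TD4 left out. Mesothelial markers gave no median with 10 counts in every library, where none was tested. Genes under a few CPM are limited by depth.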

Other observations

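Of 40 lysosomal genes tested, 7 were higher in TD (17.5%, beside 6.91% of all genes) and 7 lower (17.5%, beside 9.33%). Those higher included the hydrolases Gla, Naglu, Man2b1 and Gaa and the proton pump subunit Atp6v0a1. Naglu was at 69.8, 77.5, 75.5 and 73.8 CPM in TD1 to TD4 and 58.6, 52.1, 60.1 and 61.9 CPM in TA1 to TA4, without overlap (log2 0.35 ± 0.07, adjusted p = 0.00288). Gla had a smaller margin (log2 0.38 ± 0.12, adjusted p = 0.0359, and 0.0723 without TA1, 0.118 without TA2, 0.0847 without TA4, 0.0644 without TD1, 0.0547 without TD2, 0.0966 without TD3 and 0.0806 without TD4). Those lower were the protease Ctsd and the pump subunits Atp6v1d, Atp6v1e1, Atp6v1h, Atp6v0b, Atp6v0c and Atp6v1g1, the last at 87.9, 84.7, 82.9 and 76.6 CPM in TD and 112, 115, 105 and 111 CPM in TA (log2 -0.41 ± 0.07, adjusted p = 7.28e-04). The 7 rises became 4 without TA1, 2 without TA2, 4 without TA4, 3 without TD2, 1 without TD3 and 1 without TD4, and the 7 falls 4 without TA1, 3 without TA2, 3 without TD2, 4 without TD3 and 3 without TD4.

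Phgdh, the first enzyme of serine synthesis, was at 40.1, 38.2, 42.4 and 35.6 CPM in TD and 22.7, 18.9, 26.6 and 23.7 CPM in TA (log2 0.77 ± 0.11, adjusted p = 1.33e-04). Gcsh, a carrier of the mitochondrial glycine cleavage system, was at 51.8, 54.9, 47.4 and 52.2 CPM in TD and 73.99, 79.2, 75.4 and 72.4 CPM in TA (log2 -0.55 ± 0.07, adjusted p = 1.04e-04). Neither gene overlapped between TD and TA, and they moved in opposite directions. In the list of 17 genes of serine, glycine and one-carbon metabolism, 2 were higher (11.8%, beside 6.91% of all genes). Another 3 were lower (17.6%, beside 9.33%). The rises were 1 without TA1, 1 without TA2, 4 without TA3 and 1 without TD4.

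Among genes outside adipocyte metabolism, Cspg4, the NG2 proteoglycan, was at 19.3, 18.002, 19.7 and 19.99 CPM in TD and 49.7, 48.8, 35.2 and 52.1 CPM in TA (log2 -1.27 ± 0.11, adjusted p = 4.58e-07). The TD libraries were nearly equal, and TA3 lay below the other TA libraries. Nos3, endothelial nitric oxide synthase, was at 3.99 to 6.07 CPM in TD and 8.31 to 13.1 CPM in TA (log2 -1.02 ± 0.19, adjusted p = 0.00157), against the direction of the other 9 called endothelial markers. Of 38 cell division genes, 2 were higher (5.26%, beside 6.91% of all genes), Mcm3 (log2 0.61 ± 0.15) and Ccna2 (log2 0.65 ± 0.20), and 0 lower. The adjusted p of Ccna2 was 0.0331, and 0.0795 without TA1, 0.102 without TA2, 0.0834 without TA4, 0.0688 without TD1 and 0.14 without TD4. The rises were 1 without TA1, 1 without TA2, 14 without TA3, 1 without TA4 and 1 without TD4.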
